A study of Homo sapiens with 6 samples.

Results

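RNA inside starved human U2OS cells was compared with RNA that had been refolded in K+ outside the cell, to show which nucleotides of starved cells matched or exceeded the refolded state. A transcript entered where its listed reverse transcriptase (RT) stops, divided by its largest listed position, came to at least 1 stop per nucleotide in both libraries. This held for 1533 of the 15739 transcripts in the files (9.74%), from 1523 genes. All libraries came from poly(A) RNA of U2OS cells, an osteosarcoma line, in which every read ends where RT stopped. Starved cells were kept for 2 h in Hank's balanced salt solution and exposed to 8% dimethyl sulfate (DMS) for 5 min. The refolded RNA was folded and methylated in 150 mM K+, free of the cell's proteins. The DMS dose and time used on refolded RNA, in K+ or in Li+, are not given. DMS exposure may therefore differ between starved cells and refolded RNA. Both RNAs were reverse transcribed in 150 mM K+. Values from unstressed cells treated with the same DMS dose, from RNA refolded in 150 mM Li+ and from RNA without DMS are given beside them as background. There was 1 library per group, so no difference given here has a replicate check, and no p-value was calculated. The labels of the 2 libraries without DMS contradict the names of their deposited files, and most of their strong cation-dependent stops at G were in the library labelled Na+, against what K+ does to rG4s. These libraries are therefore called by their labels only. The cation of the library labelled Na+ is also uncertain, as the authors' methods name Li+ for RT without K+, whereas their results name Na+. Median ratios and levels of cation-dependent stops at G are given for both assignments. Their values by motif and region, and single stops, are given mainly for the assignment opposite to the labels.

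DMS methylates the N1 position of adenine and the N3 position of cytosine when these are not held in base pairs, and such methyl groups stop RT. Stops at A and C therefore report on open bases, whereas U is not blocked by DMS and G is methylated at N7, a position used by RNA G-quadruplexes (rG4s). Inside cells, helicases, ribosomes and bound proteins hold many RNA structures open, and removing proteins and refolding gives the structure that the sequence adopts alone.

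The listed RT stops summed to 24014417 in starved cells and 21480565 in refolded RNA, of which 19063711 (79.4%) and 13872216 (64.6%) lay on the 1533 transcripts. Their median depth was 3.34 stops per nucleotide in starved cells and 2.89 in refolded RNA. Only nucleotides with at least 3 stops are listed. Of these transcripts, 1473 (96.1%) were matched to the annotation, 1436 as mRNAs and 37 as noncoding RNAs. Values are stop counts divided by the mean count of the same base in the same transcript and library, called normalised stops. Intervals cover counting error or variation between transcripts only, and amplified reads are not independent molecules even though the authors removed duplicates.

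At single nucleotides, most A and C positions of starved cells were within 2-fold of the refolded RNA, and differences reached more than 10-fold in both directions. Sites were ranked among positions with at least 100 stops in the higher library, at most 1 per gene. The 5 A or C sites with the highest ratio of starved cells over refolded RNA are given first. In order, they lay in a small nucleolar RNA (snoRNA), a ribosomal protein mRNA, a signalling adapter and an actin-binding peptide. The last lay in a short transcript matched to an snoRNA host gene. Surroundings of all 5 are shown 5′ to 3′ because these are the sites where starved cells exceeded the refolded state by the most. The capital marks the RT stop site.
SNORD42A: aaugauggaaaaauCauuauuggaaaaga
RPL19: aucaagacuuuaucCaaggaggaagagac
YWHAB: uugcaccugugaauAacugcacuccagcc
TMSB4X: gaaacugaagaagaCagagacgcaagaga
SNHG5: ugaucuuaucccgaAccugaacuucuguu
At C 629 of RPL19, a protein of the large ribosomal subunit (chr17:37360863-37360891, plus strand, GRCh37, exon 6 of 6, coding sequence), 111 stops were counted in starved cells and 4 in refolded RNA. Normalised stops were 5.25 and 0.379, a ratio of 13.8 (95% exact binomial interval 5.26 to 51.7). This site was also strong without DMS, at 6.84 and 6.67 in the libraries labelled Na+ and K+. At A 1995 of YWHAB, a 14-3-3 adapter (chr20:43536037-43536065, plus strand, exon 7 of 7, 3′ UTR), 590 stops in starved cells stood against 79 in refolded RNA, and the ratio of normalised stops was 12.1 (9.58 to 15.6). It too was strong without DMS (26.0 and 31.2). C 140 of TMSB4X, which encodes the actin-sequestering thymosin beta 4 (chrX:12994428-12994456, plus strand, exon 2 of 3, coding sequence), had 113 and 4 stops and a ratio of 11.9 (4.53 to 44.5), with 1.62 and 1.14 normalised stops without DMS. A 24 of a short transcript matched to SNHG5 (chr6:86387049-86387077, minus strand, exon 5 of 5) had 114 and 4 stops and a ratio of 10.8 (4.11 to 40.4). Listed positions of this transcript end at 51, and A 24 lies at position 416 of the matched SNHG5 sequence. The stops listed there thus cover only a short part of that RNA. The site was weak without DMS, at 0.644 and 0.676. C 19 of SNORD42A (chr17:27050452-27050480, plus strand, exon 1 of 1) had 102 stops in starved cells and was not listed in refolded RNA. With at most 2 stops there, it was at least 15.3-fold higher in starved cells (interval at 2 stops 4.13 to 128). It had 3.31 and 3.04 normalised stops without DMS. At SNORD42A and SNHG5, unstressed cells had 6.00 and 5.11 normalised stops against 5.56 and 5.19 in starved ones. RPL19, YWHAB and TMSB4X had 1.25, 16.7 and 0.480 in unstressed cells against 5.25, 66.6 and 1.00. In this order, the unstressed values rest on 7, 24, 15, 145 and 20 stops, and no intervals were calculated for them. Refolding in Li+ gave 2.03 at RPL19, well above the 0.379 in K+, and 5.50 at YWHAB, 0.236 at TMSB4X and 0.593 at SNHG5, while SNORD42A was not listed. All 5 were thus lower in Li+ than in starved cells, RPL19 by the least.

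The 5 A or C sites with the lowest ratio are, without local scaling, the sites where starved cells fell short of the refolded state by the most. They lay in actin, vimentin, ribosomal protein and adapter mRNAs, and the 4 shown here are in coding sequence or 5′ UTRs.
ACTB: ugacggggucacccAcacugugcccaucu
RPL13: ucacaagaagguggCccggaccaucggca
ACTG1: acucuguucuuccgCcgcuccgccgucgc
VIM: cucgcuccgaggucCccgcgccagagacg
A 566 of ACTB, the beta-actin gene (chr7:5568218-5568246, minus strand, exon 4 of 6, coding sequence), had 112 stops in refolded RNA and was not listed in starved cells. With at most 2 stops there, it was at least 17.7-fold lower (interval at 2 stops 4.78 to 148). C 521 of RPL13, of the large ribosomal subunit (chr16:89627997-89628025, plus strand, exon 3 of 5, coding sequence), had 15 stops in starved cells and 205 in refolded RNA. Its normalised stops were 4.63 and 57.6, 12.4-fold lower in starved cells (7.37 to 22.7). C 107 of ACTG1, which encodes gamma-actin (chr17:79479772-79479800, minus strand, exon 2 of 7, 5′ UTR), had 3 and 107 stops and was 10.8-fold lower (3.61 to 53.4). C 293 of VIM, the intermediate filament vimentin (chr10:17271287-17271315, plus strand, exon 2 of 10, 5′ UTR), had 37 and 466 stops and was 7.75-fold lower (5.54 to 11.2). A 262 of YWHAZ, another 14-3-3 adapter, had 9 and 116 stops and was 9.73-fold lower (4.95 to 21.8). Refolding in Li+ gave the same order at each of these sites, with normalised stops of 1.58 at ACTB, 40.3 at RPL13, 5.16 at ACTG1, 14.1 at VIM and 2.50 at YWHAZ. All 5 were weaker in unstressed cells than in refolded RNA, at 0.407, 6.30, 1.66, 1.69 and 0.524.

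Over all tested positions, the pattern differed between the bases. A position was tested where at least 1 of the libraries had 20 stops or more, an unlisted position was set to 2 stops, and a difference of at least 2-fold in normalised stops was called. Of 140813 tested A positions, 15.3% were higher in starved cells and 12.2% lower, and 72.5% were within 2-fold. Of 36582 C positions, 17.8% were higher and 15.5% lower, so that C diverged more often than A in both directions with this mean. Of 33256 G positions 12.9% were higher and 5.87% lower, and of 11234 U positions 13.2% were higher and 4.53% lower. Starved cells thus matched the refolded RNA to within 2-fold or exceeded it at 87.8% of A, 84.5% of C, 94.1% of G and 95.5% of U positions. Where counts were instead divided by the mean of the whole transcript, the median log2 ratio moved from 0.08 to 0.04 at A, from 0.05 to -0.11 at C, from 0.14 to 0.39 at G and from 0.17 to 0.33 at U. Of A positions 14.5% were then higher and 12.9% lower, of C positions 14.5% and 20.2%, of G positions 20.3% and 3.78%, and of U positions 17.9% and 3.06%. The direction at C thus depended on the mean used, and G and U moved further towards starved cells.

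The shares of stops at each base show what moved these means. A took 60.8% of the stops in starved cells and 62.5% in refolded RNA, and C took 15.4% and 18.4%. G took 17.5% and 14.2%, and U took 6.23% and 5.00%. The 95% Wilson intervals of these shares were narrower than the differences, for A 60.8 to 60.8 and 62.4 to 62.5. Together, A and C held 76.3% of the stops in starved cells, 80.8% in refolded RNA, 79.9% after refolding in Li+, 86.6% in unstressed cells, and 51.3% and 52.1% in the libraries labelled Na+ and K+ without DMS. Starved cells were thus the DMS library closest to the libraries without DMS. Per transcript, the share of A and C was lower in starved cells at a median of -4.81 percentage points and higher in only 26 of 1533 transcripts. The share of G was higher in 1503 transcripts (median difference 3.47 points) and that of U in 1367 (1.25 points). How far stops that do not come from DMS take part in the comparisons with starved cells was not tested.

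**Figure D1:**
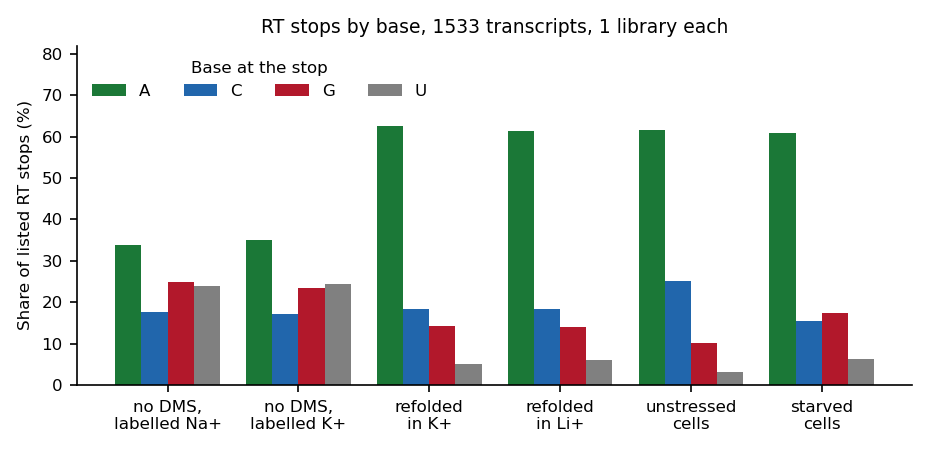
Share of listed RT stops at A, C, G and U (percent, y axis) in each of the 6 libraries, summed over 1533 transcripts, 1 library per bar group. A and C together take 76.3% in starved cells and 80.8% in RNA refolded in K+, against 51.3% and 52.1% without DMS.

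Where a position lay along the transcript went with its ratio at every base. In the first 10% of transcript length, counted from the 5′ end, the median log2 ratio of starved cells over refolded RNA was -0.64 at A, -0.47 at C, -0.58 at G and -0.54 at U. It increased in each following step of 10% and reached 0.73, 0.62, 0.61 and 0.33 in the last. U, which DMS does not block, shared the slope, although less steeply near the 3′ end. Within transcripts, the median log2 ratio of the last 20% of the length minus that of the first 20% was 0.92 (95% order-statistic interval 0.87 to 0.97) and was above 0 in 778 of 801 transcripts with at least 20 positions listed in both libraries at each end. The same difference was 0.81 for unstressed cells over refolded RNA (552 of 592 above 0), 0.14 for starved over unstressed cells (311 of 517) and -0.01 for K+ over Li+ (459 of 1022). These comparisons share libraries. The slope thus stood between RNA from DMS-treated cells and refolded RNA, of either ion. Starved cells over the library labelled K+ without DMS had 0.74 (758 of 812), and refolded RNA over the same library had -0.13 (308 of 962). Longer transcripts had steeper slopes, with medians of 0.65 below 1000 nt, 1.00 from 1000 to 2000 nt, 1.18 from 2000 to 4000 nt and 1.17 above (Spearman correlation of length and slope 0.491 across 801 transcripts of the same libraries). RNA integrity and fragmentation were not given per library, and their part in the slope, like that of depth, was not tested.

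**Figure D2:**
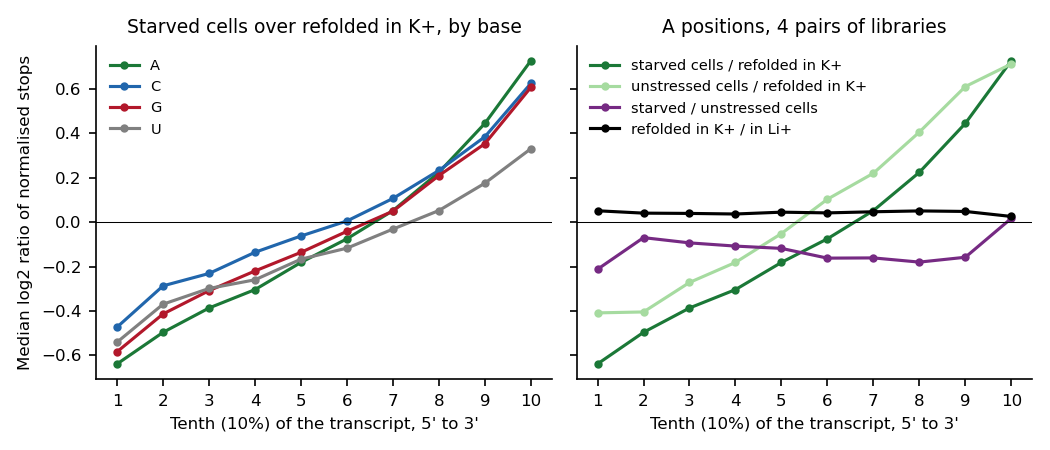
Median log2 ratio of normalised stops (y axis) in steps of 10% of transcript length from the 5′ to the 3′ end (x axis), for starved cells over refolded RNA by base (left) and at A for 4 pairs of libraries (right). Starved cells over refolded RNA runs from -0.64 to 0.73 at A, whereas K+ over Li+ stays between 0.03 and 0.05.

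The transcript regions followed this slope. In 5′ UTRs, 1.91% of 3305 tested A positions were higher in starved cells and 35.4% lower. In coding sequence the shares were 6.84% and 18.1% of 72985 positions, and in 3′ UTRs 26.7% and 3.73% of 57245. At C, 6.98%, 14.6% and 25.4% were higher in 5′ UTRs, coding sequence and 3′ UTRs, and 30.7%, 18.1% and 7.83% lower. To separate single sites from the slope, each log2 ratio was also taken relative to the median log2 ratio of the positions of all bases listed in both libraries within 100 nt, a scaling chosen after seeing the data. With this local scaling 8.7% of A positions were higher in starved cells and 7.58% lower, and 14.1% of C positions were higher and 12.7% lower. At G the shares were 7.95% and 3%, and at U 8.15% and 3.66%. In 3′ UTRs 11.4% of A positions were then higher and 5.38% lower, in coding sequence 6.42% and 9.38%, and in 5′ UTRs 5.26% and 10.6%. At C the regions became alike, with 12.0%, 14.1% and 14% higher and 11.5%, 12.9% and 12.6% lower in 5′ UTRs, coding sequence and 3′ UTRs. Calls thus decreased at every base, less at C than at A, and the excess of A calls in 3′ UTRs became smaller. The named A and C sites kept a difference of at least 2-fold under local scaling, from 9.37-fold at YWHAB to 22.5-fold at SNHG5 among the high sites and from 3.37-fold at YWHAZ to 10.9-fold at RPL13 among the low ones, with ACTB at 5.61-fold. Their ranking changed: 4 of the 5 low sites, all but RPL13, and 1 of the 5 high sites, YWHAB, were no longer among the 5 most extreme.

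**Figure D3:**
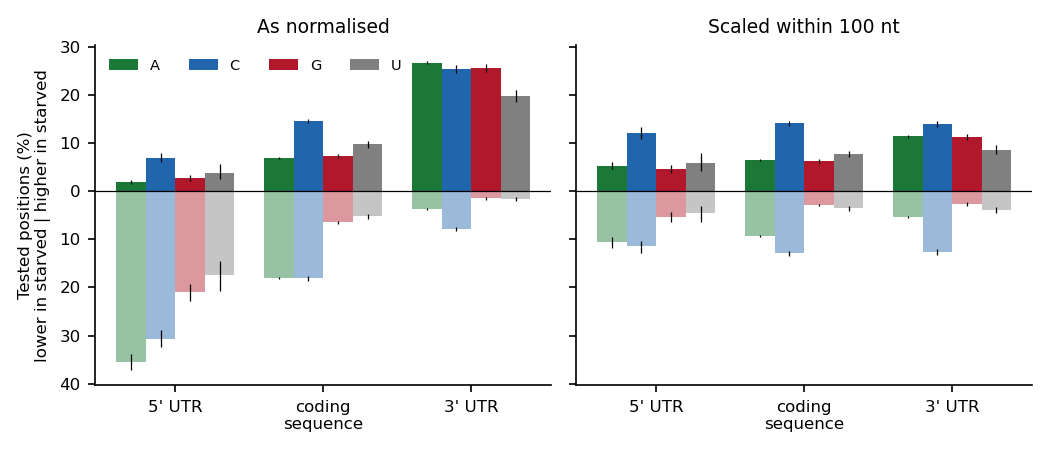
Percent of tested positions (y axis) at least 2-fold higher (above 0, full colour) or lower (below 0, pale) in starved cells than in RNA refolded in K+, by transcript region (x axis) and base (colour), with 95% Wilson intervals. Of A positions in 3′ UTRs 26.7% are higher as normalised (left) and 11.4% relative to the positions within 100 nt (right).

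Predicted base pairing, calculated from the sequence alone, differed between the sites that exceeded the refolded state and those that fell short of it. Unpaired probabilities were computed for the matched transcripts with RNAplfold. Of A positions higher in starved cells under local scaling, 57.4% (95% Wilson interval 56.5 to 58.3, n = 11737) had an unpaired probability below 0.5, against 32.7% of all tested A positions and 19.4% of those lower in starved cells. At C these shares were 74.0%, 51.2% and 35.3%. Sites higher in starved cells were thus predicted to be paired more often than tested positions as a whole, and sites lower in starved cells less often. The RNA refolded in K+ is part of the ratio that chose these sites, and its own stops followed predicted pairing, as given below. At A it had median normalised stops of 0.73 at the higher sites, 1.66 over all tested positions and 2.33 at the lower sites. The choice of sites thus favours this order, and how much of it goes beyond that choice was not tested. In other libraries, which took no part in choosing the sites, A positions higher in starved cells had median normalised stops of 1.01 after refolding in Li+, 1.40 in unstressed cells, and 1.54 and 1.55 without DMS. All tested A positions had 1.60, 1.56, 1.52 and 1.52. A positions lower in starved cells had 1.87, 1.21, 1.24 and 1.22. At C, the sites higher in starved cells had 0.95 in Li+ and 1.54 in unstressed cells against 1.96 and 1.82 over all tested C positions, and the lower sites had 3.10 and 1.85. The sites called higher in starved cells were thus also low after refolding in Li+, and not above the tested positions as a whole in unstressed cells. Refolding in Li+ gave values close to refolding in K+, so the Li+ values are not an independent check.

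The contrast between predicted unpaired and paired bases was weaker in starved cells than in refolded RNA in all but 62 of 1297 transcripts. The mean of normalised stops at A and C with an unpaired probability of at least 0.9, divided by that at A and C below 0.1, had a median over transcripts of 1.35 in starved cells (95% order-statistic interval 1.32 to 1.38, n = 1298) and 2.49 in refolded RNA (2.44 to 2.55, n = 1297). It was 2.23 after refolding in Li+, 1.56 in unstressed cells, and 0.917 and 0.910 in the libraries labelled Na+ and K+ without DMS. On the log2 scale the median difference of starved cells minus refolded RNA was -0.89 (-0.93 to -0.86). It was -0.90 without positions that were strong in a library without DMS, and -0.60 over 901 transcripts with a shorter folding window. By region, pooled over positions, the contrast was 0.989 in 5′ UTRs, 1.41 in coding sequence and 1.22 in 3′ UTRs of starved cells, and 1.44, 2.47 and 2.34 in refolded RNA. The level in starved cells was lowest in 5′ UTRs and highest in 3′ UTRs at paired and unpaired bases alike. These means are not locally scaled, and the part of the slope in them was not tested. In 5′ UTRs, paired A and C had mean normalised stops of 0.639 in starved cells and 0.893 in refolded RNA, and unpaired ones 0.632 and 1.28. In coding sequence, paired bases had 0.697 and 0.570, and unpaired ones 0.984 and 1.41. In 3′ UTRs paired bases had 1.43 and 0.690, and unpaired ones 1.74 and 1.62. Starved cells thus exceeded the refolded state at both classes in 3′ UTRs, more so at paired bases, and at neither in 5′ UTRs.

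**Figure D4:**
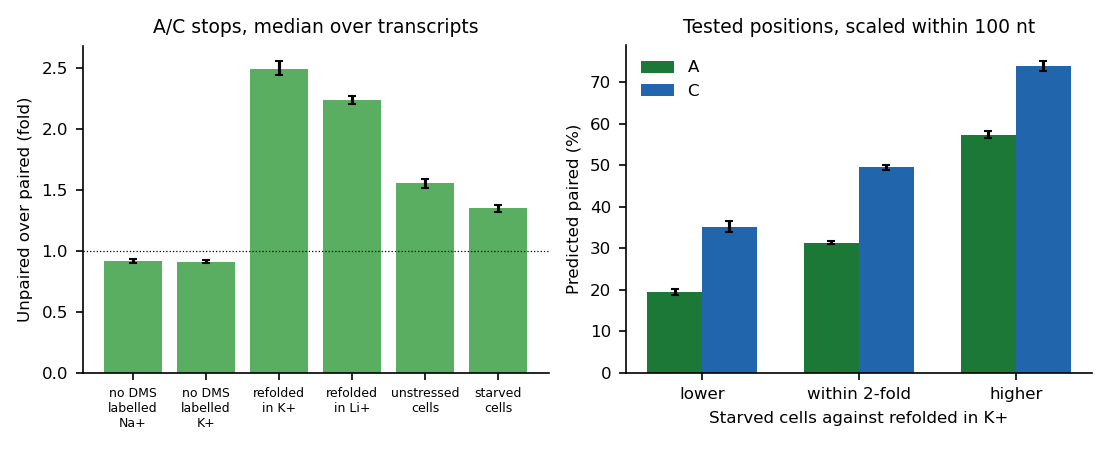
Left, mean normalised stops at predicted unpaired over predicted paired A and C (fold, y axis), median over transcripts with 95% order-statistic intervals, in each library; right, percent of tested A and C positions predicted paired (y axis) among those lower, within 2-fold and higher in starved cells than in RNA refolded in K+, with 95% Wilson intervals. The fold is 1.35 in starved cells and 2.49 in refolded RNA, and 57.4% of higher A positions are predicted paired against 19.4% of lower ones.

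The bases next to the called sites differed as well. C positions higher in starved cells under local scaling had a U on their 5′ side in 33.6% of cases, against 26.7% of all tested C positions and 19.5% of the lower ones. C positions lower in starved cells had another C on their 3′ side in 28.5% of cases, against 17.8% of all and 14.9% of the higher ones. The VIM and RPL13 sites shown above are of this kind. A positions higher in starved cells had a 5′ G in 28.7% of cases against 23.3% of all. U positions higher in starved cells had a 3′ G in 50.9% of cases against 42.9% of all and 17.3% of the lower ones. Ligation and sequence preferences of the libraries were not tested.

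Along whole transcripts, the A and C profile of starved cells resembled that of refolded RNA less closely than refolding in K+ resembled refolding in Li+. Across A and C positions of a transcript, the Pearson correlation of normalised stops between starved cells and refolded RNA had a median of 0.503 (95% order-statistic interval 0.493 to 0.518, quartiles 0.383 and 0.650) over 1495 transcripts with at least 30 such positions. It was higher at A alone (0.567) than at C (0.471), G (0.394) and U (0.265). It increased with depth, with medians of 0.379 in 628 transcripts with 1 to 2 stops per nucleotide in the shallower library, 0.530 in 509 with 2 to 5, 0.681 in 267 with 5 to 20, and 0.791 in 91 with 20 or more. Just inside the minimum depth the median was 0.331 (93 transcripts), and just outside it 0.323 (98). A low correlation in a shallow transcript is therefore not read as a difference in structure. On the 1078 transcripts that reached the minimum in all 6 libraries, the median was 0.577 for starved cells and refolded RNA, 0.664 for starved and unstressed cells, and 0.791 for K+ and Li+. It was 0.583 for starved cells and RNA refolded in Li+ and 0.566 for unstressed cells and RNA refolded in K+, so the match was particular neither to K+ nor to starvation. Starved cells and the library labelled K+ without DMS had 0.545, and refolded RNA and that library 0.425. These pairs share libraries, which differ in depth. In 1072 of the 1078 transcripts starved cells and refolded RNA were less alike than the 2 refolded RNAs. In 796 they were less alike than starved and unstressed cells. Dividing each value by the mean of the A and C positions within 100 nt, chosen after seeing the data, turned that order around. The medians became 0.428 for starved cells and refolded RNA and 0.387 for starved and unstressed cells, and the first was the lower in only 333 transcripts. K+ and Li+ kept 0.684.

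**Figure D5:**
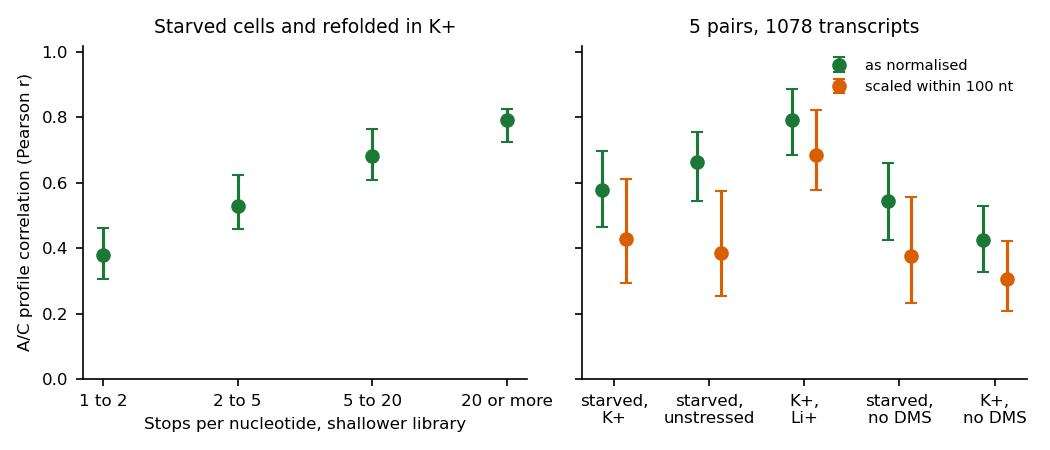
Pearson correlation of A and C profiles within a transcript (y axis), median and quartiles over transcripts, for starved cells and RNA refolded in K+ by depth of the shallower library (left) and for 5 pairs of libraries on 1078 transcripts, as normalised and scaled within 100 nt (right); no DMS is the library labelled K+. The median of the first pair is 0.379 at 1 to 2 stops per nucleotide and 0.791 at 20 or more.

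The Gini index, which is 0 for stops spread evenly over the A and C positions and near 1 for stops at few of them, was slightly higher in starved cells over all transcripts, but not in each subset or setting. After the deeper library of each transcript was thinned to the depth of the shallower, its median was 0.581 in starved cells and 0.551 in refolded RNA. The median difference within transcripts was 0.0187 (0.0152 to 0.0208) and was above 0 in 993 of 1495. It was 0.00834 in the 902 transcripts with starved cells deeper and 0.0386 in the 593 with refolded RNA deeper, so thinning did not remove the relation to depth. At a minimum of 5 stops per nucleotide it was -0.00206, with an interval that includes 0 (-0.00553 to 0.00385). The difference followed length, at -0.00809 below 1000 nt, 0.0136 from 1000 to 2000 nt, 0.0456 from 2000 to 4000 nt and 0.0739 above. The Spearman correlation of the difference with length was 0.539 across 1495 transcripts, and with the 5′ to 3′ slope 0.547 across 801. At the deposited depth, without thinning, the difference was 0.00661, and with those counts divided by the local mean it was -0.0158 (663 of 1495 above 0). Within regions of at least 100 positions it was -0.0266 in 1357 coding sequences and -0.0518 in 54 5′ UTRs, and -0.00287 in 966 3′ UTRs, where the interval (-0.00539 to 0.000653) includes 0. The higher index of whole transcripts was thus not seen within coding sequences or 5′ UTRs. By region, the profile correlation had a median of 0.535 in 3′ UTRs, 0.405 in coding sequence and 0.338 in 69 5′ UTRs.

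Among the 328 genes with at least 5 stops per nucleotide in both libraries and at least 200 A and C positions, whose median correlation was 0.699, the closest match of starved cells to refolded RNA was at RPL41 (r = 0.931), a short basic protein of the large ribosomal subunit. It was followed by RPL37 (0.923) and RPL22 (0.913) of the same subunit, a transcript not matched to the annotation (0.911) and PPIA (0.908), the prolyl isomerase cyclophilin A. The lowest correlations were at TIMM17A (0.484), of the mitochondrial protein import channel, PSMG2 (0.495), a proteasome assembly chaperone, CSE1L (0.501), an exporter of importin alpha, BZW1 (0.505), a regulator of translation initiation, and ARPC3 (0.507), of the actin-nucleating Arp2/3 complex. In refolded RNA, TIMM17A, PSMG2 and ARPC3 had 5.13, 5.31 and 5.84 stops per nucleotide and BZW1 had 5.37 in starved cells, just above the minimum for naming, where correlations are lower than in deeper transcripts.

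The genes with the largest Gini difference among these 328 had mRNAs with steep slopes. EIF4G2, a translation initiation factor, had a Gini index of 0.700 in starved cells and 0.462 in refolded RNA, and its slope was 2.91. RAD21, a cohesin subunit, had 0.698 and 0.481 (slope 2.03), and ITGB1, integrin beta 1, had 0.651 and 0.436 (slope 2.56). ACTB had 0.758 and 0.592 (slope 2.61) and ACTG1 0.735 and 0.584 (slope 2.08). In EIF4G2, 168 of 1081 tested A and C positions were higher in starved cells and 448 lower, against 48 and 161 of 1049 under local scaling. Over all covered genes 15.8% of these positions were higher and 12.9% lower, and 9.80% and 8.65% under local scaling. ITGB1, with 362 of 877 lower, and ACTB, with 265 of 541, also had many lower positions, and 143 and 63 under local scaling. With thinning as well, ACTB had 33 higher and 34 lower of 318, whereas EIF4G2 had 43 and 107 of 750 and ITGB1 35 and 103 of 715. The most negative differences were at NAP1L1, a histone chaperone (0.528 and 0.605), TIMM8B, of mitochondrial import (0.473 and 0.549), SNRPG, of the spliceosome (0.489 and 0.563), TMSB4X (0.438 and 0.510) and RPS18, of the small ribosomal subunit (0.405 and 0.477). The depth of ACTB was 13.2 stops per nucleotide in starved cells and 43.8 in refolded RNA, and its correlation was 0.714. None of the 5 mRNAs named for rG4s, APP, APH1A, HIRA, LMNB1 and CDKN1B, reached the minimum of 1 stop per nucleotide in both libraries. They are not described.

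The highest correlations among the gene groups were in ribosomal protein mRNAs, which were also the deepest, although the other groups did not follow depth in order. All 47 genes of the large ribosomal subunit were covered, with a median correlation of 0.820 and all 47 above the median of all covered genes, 0.503. The small subunit had a median of 0.80 over 31 genes. These mRNAs were also much deeper, at 61.1 and 91.6 stops per nucleotide in starved cells and 31.7 and 44.9 in refolded RNA, against 3.32 and 2.89 over all covered genes. RPLP1, of the ribosomal stalk, had a correlation of 0.716, RPL38 0.804, RPL9 0.825, RPS12 0.791, RPS27 0.913 and RPS18 0.846. Ribosomal protein mRNAs had shallow slopes, of 0.64 and 0.57 for the large and small subunit against 0.92 over all genes, but they are short, with median lengths of 801 and 685 nt, and all transcripts below 1000 nt had 0.65. Translation factors had a median correlation of 0.597 and a slope of 1.32, with 0.756 at EEF1A1, which carries aminoacyl-tRNA to the ribosome. Glycolysis had 0.667 and a slope of 1.53, with 0.732 at GAPDH, 0.699 at LDHB and 0.636 at LDHA. Oxidative phosphorylation had 0.694 and 0.84, cytosolic chaperones 0.609 and 1.41 and the cytoskeleton 0.710 and 1.31. HSPA8, the constitutive HSP70, had a correlation of 0.558 despite 46.4 and 40.5 stops per nucleotide, and a slope of 1.74. Endoplasmic reticulum chaperones had a median correlation of 0.502 and a slope of 1.58, and CANX, the lectin chaperone calnexin, had 0.429 and 2.78. Smaller groups were collagen and matrix (0.568, 4 genes), mRNAs with iron-responsive elements (0.704, 3 genes), selenoproteins (0.541, 4 genes), the amino acid response (0.524, 4 genes), serum response (0.628, 2 genes) and noncoding RNAs (0.586, 9 genes). In the iron-responsive group, FTH1 and FTL, the ferritin chains, had 0.841 and 0.704, and TFRC, the transferrin receptor, 0.506. ATF4, the transcription factor of the amino acid response, had 0.598, and SLC38A2, an amino acid transporter, 0.323.

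The shares of called sites in many of these groups changed direction when the deeper library of each transcript was thinned to the total of the shallower. With this thinning and local scaling, 8.45% of 119302 A and C positions of all covered genes were higher in starved cells and 8.79% lower. In the large ribosomal subunit the shares were 7.08% and 4.93%, in the small subunit 7.70% and 5.35%, in translation factors 6.76% and 9.04%, and in cytosolic chaperones 6.59% and 7.74%. The cytoskeleton went from 6.99% higher and 9.74% lower at the deposited depth to 7.56% and 8.76% after thinning. The amino acid response went from 13.2% and 7.66% to 13.2% and 8.55%, so neither of these groups changed direction. Glycolysis went from 5.58% higher and 9.40% lower at the deposited depth to 7.0% and 6.06% after thinning, and collagen and matrix from 3.42% and 11% to 6.52% and 5.16%. Oxidative phosphorylation went from 9.62% and 5.62% to 6.17% and 8.76%, selenoproteins from 7.35% and 9.93% to 9.92% and 7.85%, iron-responsive element mRNAs from 7.16% and 8.24% to 8.07% and 7.58%, and serum response from 4.56% and 20.3% to 13.5% and 6.31%. These groups differ in depth, and whether depth sets their shares was not tested. In endoplasmic reticulum chaperones, where refolded RNA was deeper in all 8 genes, 4.68% were higher and 23.2% lower at the deposited depth, but 12.7% and 9.25% after thinning. Noncoding RNAs, with refolded RNA deeper in none of 11, went from 15.8% and 2.39% to 9.97% and 12.0%. In the 8 groups from glycolysis to noncoding RNAs the direction therefore turned with thinning and is not read as a difference. It also turned over all covered genes, from 9.80% and 8.65% at the deposited depth.

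Stops at G bear on rG4s, which halt RT where K+ holds them folded. Among G positions with a score of at least 10 in 1 library without DMS and at least 2-fold that in the other, 995 were stronger in the library labelled Na+ and 41 in the library labelled K+. The data of this pair thus went against the labels, and medians are given for both assignments. By the labels, 32 of the 41 stops were listed in starved cells or refolded RNA, with a median log2 ratio of 0.20 (-0.23 to 0.53). By the opposite assignment, 895 of the 995 were listed, on 335 transcripts, with a median of -0.23 (-0.36 to -0.12). Of these, 63.4% were within 2-fold, 9.72% higher in starved cells and 26.9% lower. Other stops with this score, 903 that were less than 2-fold stronger there than in the other library, had a median of 0.09 (0.05 to 0.15), with 8.97% higher and 6.53% lower. The 226 stops next to 4 runs of 3 G had -0.52 (-0.68 to -0.38), and the 547 next to 4 runs of 2 G had -0.15 (-0.27 to -0.02). The 103 with neither had -0.08 (-0.40 to 0.14). Under local scaling these classes had -0.54, -0.17 and -0.34, so that the values did not follow the motif in order. With local scaling the medians were -0.31 for the 744 cation-dependent stops with enough neighbours and 0.05 for the others, a gap much as before although fewer stops were compared. All these ratios divide by the mean of G in each library, and G took a larger share of stops in starved cells. With the mean of the whole transcript, the median over all tested G positions was 0.39 instead of 0.14. That of the stops by the labels was 0.38 (29 stops). The 895 stops were not computed with that mean, so whether their median stays below 0 was not tested. The 895 stops had median normalised stops of 19.9 in the library labelled Na+, 1.44 in the library labelled K+, 3.80 in RNA refolded in K+, 2.94 in Li+ and 2.98 in starved cells. In unstressed cells 432 of them were listed, against 747 in starved cells, at the lower depth of that library. By the labels, the 32 stops had 7.43 in starved cells, 5.11 in K+ and 5.43 in Li+, and 27 of them had neither motif. All 32 were listed in starved cells but only 23 in K+, and unlisted stops count as 0 in these levels. Over the 23 listed in both, the median log2 ratio was 0.11 (-0.23 to 0.48). This interval and that over all 32 include 0, so no direction is read from these stops. The ratios also differed by region. By the opposite assignment, the 513 stops in 3′ UTRs had a median log2 ratio of 0.04 (-0.04 to 0.14), the 206 in coding sequence -0.52 and the 119 in 5′ UTRs -0.95. With local scaling these were -0.28 (475 stops), -0.35 (164) and -0.16 (51). Median counts in starved cells and refolded RNA were 9 and 10 in 3′ UTRs, 5 and 7 in coding sequence, and 3 and 6 in 5′ UTRs. In starved cells 467 of the 513, 148 of the 206 and 76 of the 119 were listed, and unlisted stops were set to 2. Medians over stops listed in both libraries were not calculated for this assignment, so these values rest partly on the listing minimum.

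Individual stops of this kind differed widely. Of the 19 with at least 100 stops in starved cells or refolded RNA, named after their values were seen, 8 were at least 2-fold lower in starved cells and 1 was at least 2-fold higher. The ratio was below 1 at 14 of them and above 1 at 5. Of all 11704 G positions with at least 50 stops in either library, 2.59% were at least 2-fold lower and 6.78% higher. The share at 100 stops was not calculated. Under local scaling 17 of the 19 were lower in starved cells, 10 of them by at least 2-fold, and 1 was at least 2-fold higher. The sequences below show G runs on the 5′ side of the stop, marked by the capital, at 2 sites that fell short of the refolded state by at least 2-fold and 3 that did not.
SET: gagauguuugggugGguuaagugggcauu
RPS9: caggguggggcuggGgcuggagacgacga
HNRNPK: ugggggggggaaggGcgugcaaaaacuaa
MAGOH: auggggggugggugGgaguagaaaauuuu
KPNB1: ugggggggagggggGagaaaaagaaaacu
The stop in the 3′ UTR of SET, a histone chaperone and phosphatase inhibitor (chr9:131457482-131457510, plus strand), had normalised stops of 44.3 after refolding in K+ and 7.78 in Li+, against 7.30 in unstressed cells and 12.1 in starved ones. This site was 3.65-fold lower in starved cells than in refolded RNA (2.96 to 4.54), and 5.91-fold under local scaling. In the coding sequence of RPS9, of the small ribosomal subunit (chr19:54711402-54711430, plus strand), the values were 13.8, 3.0, 1.37 and 4.09, 3.38-fold lower in starved cells (2.63 to 4.37) and 4.47-fold under local scaling. At both sites starved cells were nearer to refolding in Li+ than in K+. In the 3′ UTR of HNRNPK, an RNA-binding protein (chr9:86584077-86584105, minus strand), the values were 40.7, 13.9, 11.4 and 27.4, a ratio of 0.674 (0.540 to 0.838), and so between both refolded states. Local scaling made this site 2.32-fold lower. In MAGOH, of the exon junction complex (chr1:53692669-53692697, minus strand, 3′ UTR), they were 14.5, 7.95, 5.56 and 27.9, a ratio of 1.92 (1.19 to 3.25). In KPNB1, importin beta (chr17:45760658-45760686, plus strand, 3′ UTR), they were 12.3, 9.76, 4.88 and 36.0, a ratio of 2.93 (2.11 to 4.10). Local scaling left MAGOH 2.19-fold higher but brought KPNB1 to 1.17. This site lies 92.5% along the transcript, in the last 10%, where stops of starved cells were high at every base.

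Over all G positions with at least 100 stops in the higher library, the highest ratios were at LDHA (5.78), RPS27 (4.94), HSPA8 (4.46), RPS3A (3.69) and ACTB (3.51). Among the lowest were ACTB (7.08-fold lower), RPL27 (6.03-fold), RPS2 (5.13-fold) and TUBA1B (3.93-fold). Under local scaling LDHA was 2.73-fold and HSPA8 2.74-fold higher, and TUBA1B, at 1.42-fold lower, was no longer past 2-fold. ACTB was among the highest and the lowest. Its G 26, in the 5′ UTR, had 6 stops in starved cells and 113 in refolded RNA, and its G 1754, in the 3′ UTR, had 111 and 84. Local scaling brought these ACTB sites to 2.08-fold lower and 1.57-fold higher. The stop at G 26 of RPL27, in the 5′ UTR, had 6 stops in each library without DMS, 153 in refolded RNA, 212 in Li+ and 89 in starved cells.
RPL27: uuuuugcugguaggGccgggugguugcug
It was 6.03-fold lower in starved cells (4.61 to 7.92), and 5.13-fold lower under local scaling. At U, the highest ratios were at a transcript not matched to the annotation, not listed in refolded RNA (at least 12.6-fold), ZHX1 (4.31), GAPDH (3.45), RPL4 (3.41) and HNRNPH1 (3.16). The lowest were at GAPDH (2.69-fold lower), RPL10 (2.34-fold), EEF1A1 (2.11-fold), RPL9 (2.04-fold) and RPS3A (2.00-fold). Under local scaling all of these low U sites were within 2-fold, at 1.77, 1.98, 1.43, 1.70 and 1.99, and so was HNRNPH1 among the high ones, at 1.77, while ZHX1 had too few neighbours for a local value. Of the GAPDH sites, U 133 in the 5′ UTR was the low one and U 1353 in the 3′ UTR the high one, and the latter was 2.09-fold higher under local scaling.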

How the data were processed

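RT stops of poly(A) RNA from U2OS cells were measured in 6 libraries: DMS-treated starved cells, DMS-treated unstressed cells, RNA refolded and DMS-treated in K+ or in Li+, and 2 libraries without DMS, labelled K+ and Na+. The authors removed duplicate reads, kept reads that Bowtie placed at a single position of hg19 transcripts with no mismatch, per their methods and processing notes (versions not given), and assigned each read to the nucleotide where RT stopped. The deposited files give, per transcript nucleotide, the stops as counts, listed from 3, and as a ratio, the fold of the count over a mean. The authors' methods describe the mean of the whole transcript, but in the deposited values the ratio is the count over the mean of the same base in that transcript.

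The mean of each base, transcript and library was rebuilt from counts and ratios, and count over mean is called normalised stops. Transcripts needed 1 stop per nucleotide in starved cells and in RNA refolded in K+. Positions with at least 20 stops in either library were compared, with unlisted positions set to 2 stops, and were called at 2-fold. Profile correlations and Gini indices used A and C positions listed in any of the 6 libraries, with at least 30 per transcript. For the Gini index the deeper library of each transcript was thinned binomially and counts under 3 dropped. The slope is the median log2 ratio in the last 20% of a transcript minus that in the first 20%, with at least 20 positions each. Transcripts were matched to GENCODE 44 sequences lifted to GRCh37 by the bases at listed positions (at least 97% identity and 80% of positions inside). Unpaired probabilities came from RNAplfold of ViennaRNA 2.7.2 (window 150, span 100). Tables were computed in Python 3.11.15 with pandas 2.3.3 and numpy 2.4.6, intervals with scipy 1.17.1 and figures with matplotlib 3.10.9, and the code was tested on simulated data.

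Listed stops summed to 24014417 in starved cells, 21480565 in K+, 31174408 in Li+, 12999691 in unstressed cells, and 33507714 and 35371061 in the libraries labelled Na+ and K+ without DMS. With 1 library per group no test between groups was made. Medians have order-statistic intervals over transcripts or sites, shares have Wilson intervals, and ratios at named sites have exact conditional binomial intervals, all at 95%. Named transcripts were the 5 highest and 5 lowest in correlation and in Gini difference among genes with at least 5 stops per nucleotide in both libraries and 200 A and C positions, together with genes the study names. Named sites were the 5 highest and 5 lowest ratios with at least 100 stops in the higher library. Cation-dependent G stops with 100 stops were named after seeing the data. Gene lists covered ribosomal proteins, translation factors, glycolysis, oxidative phosphorylation, cytosolic and endoplasmic reticulum chaperones, cytoskeleton, collagen and matrix, iron-responsive element mRNAs, selenoproteins, amino acid response, serum response, noncoding RNAs and rG4 genes. Members and lists were chosen with earlier results of these data known. Alternatives varied the minimum depth, the site minimum, the fold, the mean used, unlisted positions, depth, capping, the correlation, strong stops without DMS, the folding window and the assignment of the libraries without DMS. Scaling within 100 nt was added after seeing the data. Transcripts below the minimum depth were left out by the rule of the comparison.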

Additional observations from a re-analysis of the deposited data

How the results depend on the processing

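Of 133 values obtained under other choices, 64 stayed as given, 65 moved and 4 changed direction. There was 1 library per group, so no analysis leaving 1 out was possible. Unless stated otherwise, the cause was not tested.

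The minimum depth changed which transcripts entered. At 0.25 stops per nucleotide 3314 were covered and at 5 only 366. The median difference in the share of stops was then -4.97 and -4.01 points for A and C together, -2.50 and -2.08 for A, 3.78 and 2.87 for G, 1.04 and 0.958 for U, and at the lower minimum -2.37 for C. The median profile correlation was 0.332 and 0.714, in the direction of depth. At 5 stops per nucleotide the Gini difference was -0.00206 (358 transcripts), below 0 but with an interval that includes it (-0.00553 to 0.00385). There 7571 A sites were higher and 8318 lower, 10.1% and 11.1% of those tested, so that the lower ones became the larger group, and 1 cation-dependent G stop by the labels was left, at 0.78.

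The profile correlation depended on how it was taken: 0.453 without positions that were strong without DMS, 0.467 by Spearman, 0.430 on log2 values, 0.488 with capped values, 0.538 over positions listed in both libraries, 0.479 with the deeper library thinned and 0.345 with values scaled within 100 nt. The Gini difference was 0.00661 at the deposited depth and 0.0109 over all A and C of the reference transcript. At the deposited depth it changed direction to -0.0158 when scaled within 100 nt, so both thinning and scaling differ from the value given first.

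The number of called sites moved under several settings, of which some also change how many positions are tested. Without positions strong in a library without DMS, 4107 C, 2862 G and 971 U sites were higher in starved cells, and 4448 C sites were lower. With at least 10 stops, 53533 A sites were higher and 55733 lower, with 18004 and 17202 at C, 15047 and 8690 at G, and 5300 and 2531 at U. With at least 50 stops they were 4688 and 2790 at A, 1852 and 1285 at C, 793 and 303 at G, and 235 and 54 at U. With the deeper library of each transcript thinned to the total of the shallower, 11406 A sites were lower, 3968 C sites higher and 3972 lower, 2559 G sites higher and 1297 lower, and 722 U sites higher. A 4-fold threshold, which by construction calls fewer, left 3536 higher and 3774 lower at A, 1340 and 1195 at C, 547 and 297 at G, and 184 and 63 at U. Relative to the mean of the whole transcript, 6639 G sites were higher and 1239 lower. Scaling within 100 nt, added after seeing the data, gave 12132 and 10580 at A, 2637 and 997 at G, and 914 higher at U. As a share of tested positions, and leaving the 4-fold threshold aside, A sites higher in starved cells ranged from 8.70% to 17.0% and lower from 6.52% to 17.7%, so that which of them was larger at A depended on these choices, as it did at C. At G and U more sites were higher than lower under each of these settings.

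The median of the cation-dependent G stops changed sign with the assignment of the libraries without DMS, as a different set is chosen. It went from 0.20 (-0.23 to 0.53, 32 stops) to -0.23 (-0.36 to -0.12, 895 stops). With the mean of the whole transcript it was 0.38 by the labels (29 stops), and the opposite assignment was not computed with that mean. The interval over the 32 stops includes 0, and over the 23 of those stops listed in both libraries the median was 0.11 (-0.23 to 0.48). By the labels a score of at least 20 left 1 stop, at -0.23, and a score of at least 5 gave 0.17 (0.11 to 0.25, 804 stops). A minimum of 0.25 stops per nucleotide gave 0.19 (0.05 to 0.34, 331 stops). With a folding window of 80 the difference between predicted unpaired and paired bases was -0.60 (901 transcripts).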
